A study of Homo sapiens with 8 samples.

Results

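The transcripts of 10 genes that set the pace of the G1 phase were followed in LNCaP cells, a line established from a metastasis of human prostate carcinoma, before and during exposure to recombinant asporin (ASPN), a secreted protein of the extracellular matrix. The genes were chosen by name, with earlier results of these data known. Among them are the D cyclins CCND1 and CCND3 and the E cyclins CCNE1 and CCNE2. The others are the kinases CDK2, CDK4 and CDK6 and the inhibitors CDKN1B, CDKN2C and CDKN2D. Together these genes are 10 of the 36474 in the count table, and all 10 were among the 21071 counted well enough to be tested. Cells in every group had been kept for 6 to 12 h in medium without serum or calcium. RNA was taken at 0 h (2 libraries), and after 12 h (3 libraries) or 24 h (3 libraries) with ASPN at 100 ng/mL. The labels call the libraries biological replicates and place the cultures in wells of plates, so the p values measure the spread between such wells. No cultures without ASPN at 12 or 24 h were analysed here, so ASPN and the time in the medium cannot be told apart.

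A cell in G1 commits to DNA replication when cyclin-dependent kinases (CDKs) phosphorylate the retinoblastoma protein RB and thereby free the E2F transcription factors. D cyclins partner CDK4 and CDK6 and respond to growth factors. E cyclins partner CDK2, and both E cyclin genes are themselves E2F targets. The INK4 inhibitors, among them p18 (CDKN2C) and p19 (CDKN2D), bind CDK4 and CDK6, whereas the Cip/Kip inhibitor p27 (CDKN1B) binds cyclin-CDK complexes and restrains CDK2 above all. The amounts of E cyclins and p27 are also set by protein degradation, which RNA counts do not record. In RNA from whole cultures, fewer cells in a phase and less RNA per cell cannot be told apart.

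Total counts ran from 73406825 to 96962135 per library. Levels are given as TMM-normalized CPM, the counts of a gene relative to its library's total, and 3 counts, the limit that a count of 0 allows, correspond to 0.0310 to 0.0413 CPM; such limits cover counting error only. The cultures carried the identity on their label: 10 of 10 luminal prostate markers were detected in every library, and their summed level was 5715 to 5757 CPM at 0 h, 6085 to 6134 CPM at 12 h and 6268 to 6413 CPM at 24 h. The 7 fibroblast and muscle markers in the table summed to 22.6 to 25.3 CPM, most of it COL1A1, the 5 leukocyte markers to 0.104 to 0.344 CPM and the 3 endothelial markers to 11.2 to 17.3 CPM, nearly all of it VWF.

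Counted against time 0, G1 cyclin and CDK2 transcripts were higher and CDKN1B transcripts lower with ASPN. At an adjusted p of at most 0.05 (edgeR quasi-likelihood F test, Benjamini-Hochberg over all tested genes), 5 of the 10 genes passed at 12 h, where 11.6% of all tested genes did. CCND1, CCND3, CCNE2 and CDK2 were higher (4 of 10, against 4.85% of all tested genes) and CDKN1B was lower (1 of 10, against 6.75%). At 24 h 7 of 10 passed, against 16.3% of all tested genes. CCNE1 joined the higher genes (5 of 10, against 7.82%) and CDKN2D the lower ones (2 of 10, against 8.49%). Only CCNE2 also passed the study's fold limit of 1.5, which 1.05% of tested genes passed at 12 h and 2.45% at 24 h. CDK4, CDK6 and CDKN2C did not pass in either comparison. The comparisons with 0 h share their time-0 libraries and so are not independent of each other. Because the 10 genes were chosen with earlier results of these data known, their counts beside these shares are descriptions only.

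The sequences before the starts of 3 of the 10 genes are shown. CCNE1 is the E cyclin with a RefSeq promoter entry, and CDK4 is the kinase with little difference between groups. CDKN1B is the inhibitor among the 10 genes that was called lower at both times. The sequences are RefSeq's on GRCh38.p14, the 250 bases before the start, read 5′ to 3′ on the gene's strand. Capitals mark the matches, on either strand, to the motifs searched: the GC box (GGGCGG), the CCAAT box (spelled as its name), the E-box (CACGTG), a FOXO word (GTAAACA), the AP-1 word (TGACTCA and its complement), the CRE word (TGACGTCA), and the E2F words TTTCCCGC, TTTGGCGC, TTTGCCGC and TTTCGCGC. No word lies within another. The CCNE1 stretch is chr19:29811741-29811990 on the plus strand, the CDKN1B stretch chr12:12717118-12717367 on the plus strand and the CDK4 stretch chr12:57752311-57752560 on the minus strand.
CCNE1: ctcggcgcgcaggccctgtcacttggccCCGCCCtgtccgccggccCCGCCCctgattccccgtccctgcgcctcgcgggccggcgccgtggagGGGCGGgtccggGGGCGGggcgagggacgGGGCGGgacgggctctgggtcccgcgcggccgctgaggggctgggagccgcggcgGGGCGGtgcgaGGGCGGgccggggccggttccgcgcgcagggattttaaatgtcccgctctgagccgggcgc
CDKN1B: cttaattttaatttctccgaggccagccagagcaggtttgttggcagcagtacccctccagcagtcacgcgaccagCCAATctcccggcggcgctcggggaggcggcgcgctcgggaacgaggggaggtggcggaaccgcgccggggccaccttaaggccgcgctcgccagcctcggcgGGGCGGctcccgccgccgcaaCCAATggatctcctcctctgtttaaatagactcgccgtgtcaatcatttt
CDK4: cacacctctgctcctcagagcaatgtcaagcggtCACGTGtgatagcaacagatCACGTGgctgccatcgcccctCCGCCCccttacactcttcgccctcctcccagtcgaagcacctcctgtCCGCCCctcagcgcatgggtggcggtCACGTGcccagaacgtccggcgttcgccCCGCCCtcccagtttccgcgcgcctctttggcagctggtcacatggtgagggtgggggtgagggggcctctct
The CCNE1 stretch is 81.2% G and C, with 7 GC boxes. The CDKN1B stretch is 64.4% G and C, and the CDK4 stretch, with 3 E-boxes and 3 GC boxes, is 65.6%, beside a median of 58.0% over all promoters in the table. Entries were present for 12 starts of 7 of the genes (not for CCND1, CCNE2 or CDK2). Over the window of 250 bases before and 50 after the start, the GC box was found at 9 of these 12 starts and at 45.0% of the 35116 promoters of that length. The CCAAT box was found at 5 of 12 starts, 1 to 3 times at each, and at 34.6% of all promoters. The E-box was found at 4 of 12 starts (CDK4, CDK6 and a pair for CDKN2C) and at 7.26% of all. One CCND3 start held the FOXO word (3.42% of all promoters). The E2F, AP-1 and CRE words, present in 3.31%, 4.95% and 1.85% of all promoters, were in none of the 12 windows, which says only that these letters are not there.

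Among the D cyclins, which carry growth factor signals to CDK4 and CDK6, CCND1 (ENSG00000110092.4, chromosome 11, 69641156 to 69654474, plus strand) was the abundant one. Its level was 286.9 and 285.6 CPM at 0 h, then 314.1, 328.7 and 314.5 CPM at 12 h, then 352.4, 348.6 and 352.4 CPM at 24 h. No library of one time overlapped those of another, and the spread within each time was small beside the steps between them. CCND1 was 1.11-fold higher at 12 h (log2 difference 0.16, SE 0.042, edgeR adjusted p = 0.0120) and 1.23-fold higher at 24 h (0.29, SE 0.042, adjusted p = 4.41e-06). It was also the 1 gene of the 10 that differed between 24 h and 12 h (0.14, SE 0.038, adjusted p = 0.0383), a comparison in which 2.72% of tested genes passed, 1.12% higher and 1.61% lower. The call at 12 h was lost without 0 h replicate 1 (edgeR adjusted p = 0.0855) and when the 24 h libraries were left out of the model (0.0617). The call between 24 h and 12 h was lost without low-count filtering (edgeR adjusted p = 0.0622), without 12 h replicate 1 (0.0719) or 3 (0.204), and without 24 h replicate 1 (0.169), 2 (0.183) or 3 (0.179). The call at 24 h held in every setting tried, with adjusted p values up to 0.000233. CCND1 shares 10.4% of its exon bases with LTO1 on the opposite strand, which had 950 to 1269 counts per library.

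CCND3 (ENSG00000112576.13, chromosome 6, 41934934 to 42050357, minus strand), the other D cyclin expressed here, had 27.3 and 27.8 CPM at 0 h. It had 31.5, 31.5 and 31.3 CPM at 12 h and 33.7, 31.7 and 32.7 CPM at 24 h. All treated libraries lay above both time-0 libraries, and the 12 h and 24 h libraries did not overlap but were close. The level was 1.14-fold higher at 12 h (log2 difference 0.19, SE 0.059, edgeR adjusted p = 0.0302) and 1.19-fold higher at 24 h (0.25, SE 0.059, adjusted p = 0.00290), whereas 24 h against 12 h gave 0.057 (SE 0.052, adjusted p = 0.711). The 12 h call was lost without 0 h replicate 1 (edgeR adjusted p = 0.236), without 12 h replicate 3 (0.0664) and in the fit to those times alone (0.0759). The ratio of CCND1 to CCND3 in CPM averaged 10.4 at 0 h, 10.2 at 12 h and 10.7 at 24 h. The time-0 libraries (10.29 to 10.52) overlapped those of 12 h (9.98 to 10.43) and those of 24 h (10.46 to 11.01). The 12 h and 24 h libraries lay next to each other without overlap. This ratio was not corrected for length. The remaining D cyclin, CCND2, was too low to be tested, with 0 to 9 counts per library.

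**Figure D1:**
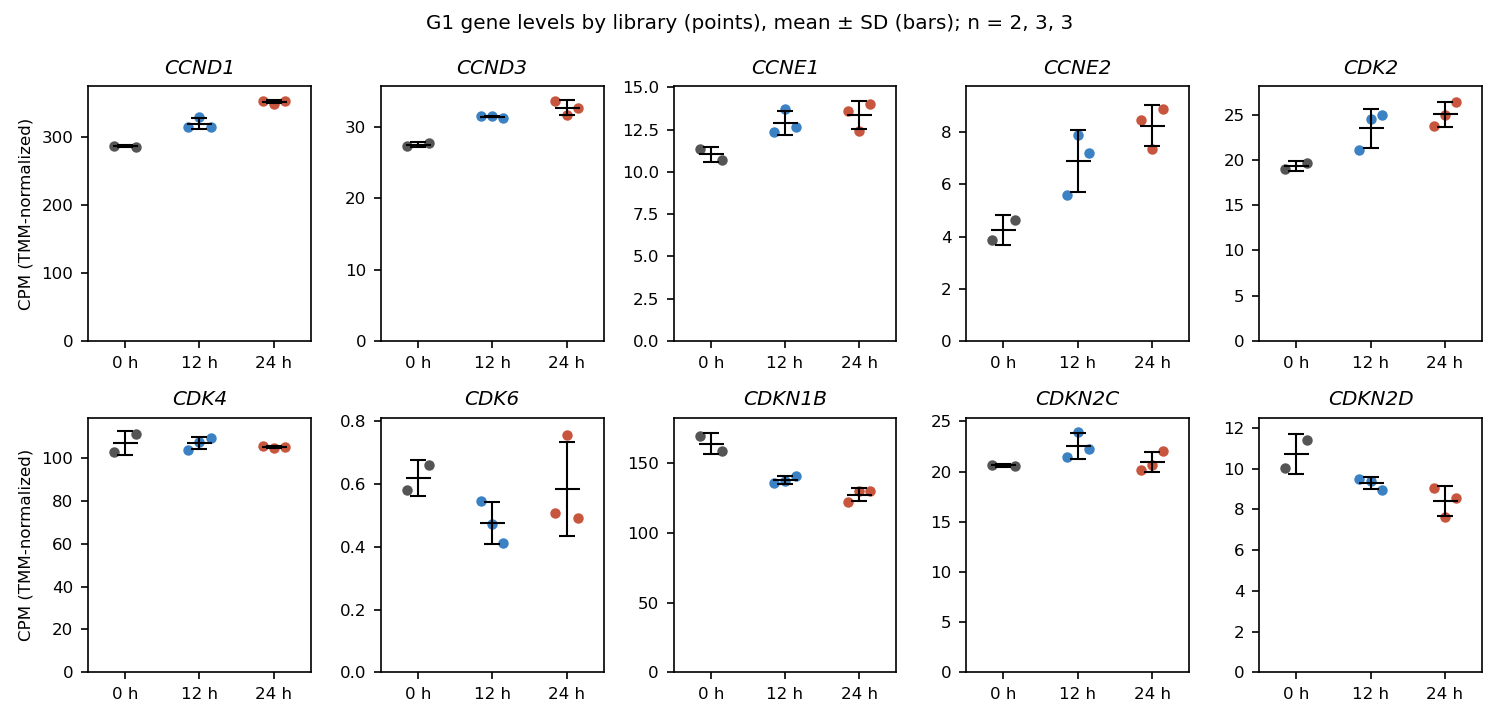
TMM-normalized CPM of the 10 genes (vertical axes, each from 0) at 0, 12 and 24 h. Points are libraries and bars are mean ± SD (n = 2, 3 and 3); CCND1 steps up from a mean of 286 to 351 CPM and CDKN1B down from 164 to 127 CPM, while the CDK4 points overlap at all times.

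The E cyclins activate CDK2 at the end of G1. CCNE2 (ENSG00000175305.18, chromosome 8, 94879770 to 94896678, minus strand) had the largest relative difference of the 10 genes in both comparisons with 0 h. Its level was 3.85 and 4.65 CPM at 0 h, resting on 339 and 338 counts. At 12 h it was 5.58, 7.89 and 7.19 CPM and at 24 h 8.48, 7.37 and 8.89 CPM, with 430 to 772 counts per library. Every treated library lay above both time-0 libraries, and the 12 h and 24 h libraries overlapped. The fold difference was 1.63 at 12 h (95% interval 1.35 to 1.96, edgeR adjusted p = 0.000338) and 1.94 at 24 h (1.62 to 2.34, adjusted p = 1.67e-06). Between 24 h and 12 h the log2 difference was 0.26 (SE 0.11, edgeR adjusted p = 0.269). Without 0 h replicate 1, the lower of the time-0 libraries, the 12 h call was lost (edgeR adjusted p = 0.0596), while the 24 h call held in every setting with adjusted p values up to 0.00151. Of the exon bases of CCNE2, 1629 (37.0%) also belong to INTS8, a subunit gene of the Integrator complex on the opposite strand, with 3736 to 5985 counts per library. The strand setting of the counting is not stated, so reads of the shared stretch cannot be assigned with certainty. INTS8 itself gave log2 differences of 0.13 (edgeR adjusted p = 0.0959) at 12 h and 0.25 (adjusted p = 0.000677) at 24 h, and its part in the CCNE2 values was not tested.

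CCNE1 (ENSG00000105173.14, chromosome 19, 29811991 to 29824312, plus strand) was the more abundant E cyclin. It had 11.4 and 10.7 CPM at 0 h, 12.4, 13.7 and 12.7 CPM at 12 h, and 13.6, 12.4 and 14.0 CPM at 24 h. The treated libraries all lay above those at 0 h, and did not separate by time. The log2 difference was 0.22 (SE 0.084, edgeR adjusted p = 0.0819) at 12 h and 0.27 (SE 0.084, adjusted p = 0.0224), or 1.21-fold, at 24 h. This call rested on single libraries. It was lost without 0 h replicate 1 (edgeR adjusted p = 0.0796), without the unnumbered time-0 library (0.137) and without 24 h replicate 1 (0.0809) or 3 (0.100). At 12 h CCNE1 passed when genes averaging under 100 normalized counts were set aside (edgeR adjusted p = 0.0490).

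CDK2 (ENSG00000123374.11, chromosome 12, 55966781 to 55972789, plus strand), the kinase that E cyclins activate, had 18.9 and 19.7 CPM at 0 h. It had 21.1, 24.5 and 24.98 CPM at 12 h and 23.7, 25.001 and 26.5 CPM at 24 h. All treated libraries were above both time-0 libraries, with 12 h replicate 1 the nearest to them. CDK2 was 1.22-fold higher at 12 h (log2 difference 0.29, SE 0.074, edgeR adjusted p = 0.00892) and 1.30-fold higher at 24 h (0.37, SE 0.074, adjusted p = 0.000371). The call at 12 h was lost without 0 h replicate 1 (edgeR adjusted p = 0.167) or 12 h replicate 3 (0.0549), and that at 24 h in no setting, with adjusted p values up to 0.0213. CDK2 shares 14.5% of its exon bases with a long non-coding RNA and 2.29% with PMEL, both on the opposite strand. That long non-coding RNA has no entry in the count table, and PMEL had 340 to 507 counts per library.

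The kinases that D cyclins activate showed no detectable difference. CDK4 (ENSG00000135446.17, chromosome 12, 57747727 to 57756013, minus strand) had 102.8 and 110.8 CPM at 0 h, 103.6, 107.4 and 109.3 CPM at 12 h, and 105.3, 104.6 and 104.9 CPM at 24 h. The groups overlapped completely. The 95% interval of the log2 difference was -0.098 to 0.097 at 12 h and -0.12 to 0.072 at 24 h (edgeR adjusted p = 0.995 and 0.801), so a CDK4 difference of the size seen for CCNE2 or CDK2 lies outside it. The sign of the 12 h value changed with the normalization. CDK4 shares 44.2% of its exon bases with TSPAN31 on the opposite strand, which had 1557 to 2071 counts per library.

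CDK6 (ENSG00000105810.10, chromosome 7, 92604921 to 92836573, minus strand), the other kinase that D cyclins activate, had few counts. It had 0.579 and 0.660 CPM at 0 h, 0.545, 0.471 and 0.412 CPM at 12 h, and 0.505, 0.755 and 0.490 CPM at 24 h, or 36 to 73 counts per library. The 12 h libraries lay below those of 0 h, and the 24 h libraries were on both sides of them. The log2 difference was -0.38 (95% interval -1.05 to 0.29) at 12 h and -0.077 (-0.74 to 0.58) at 24 h (edgeR adjusted p = 0.542 and 0.921), and these intervals leave room for differences as large as that of CCND1 in either direction. CDK6 counts amounted to 0.579% of those of CDK4 at 0 h, 0.447% at 12 h and 0.556% at 24 h. These shares are not corrected for length, and CDK6 has 12239 merged exon bases where CDK4 has 3094. Per kilobase of merged exon, the 0 h means were 0.0506 CPM for CDK6 and 34.5 CPM for CDK4.

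**Figure D2:**
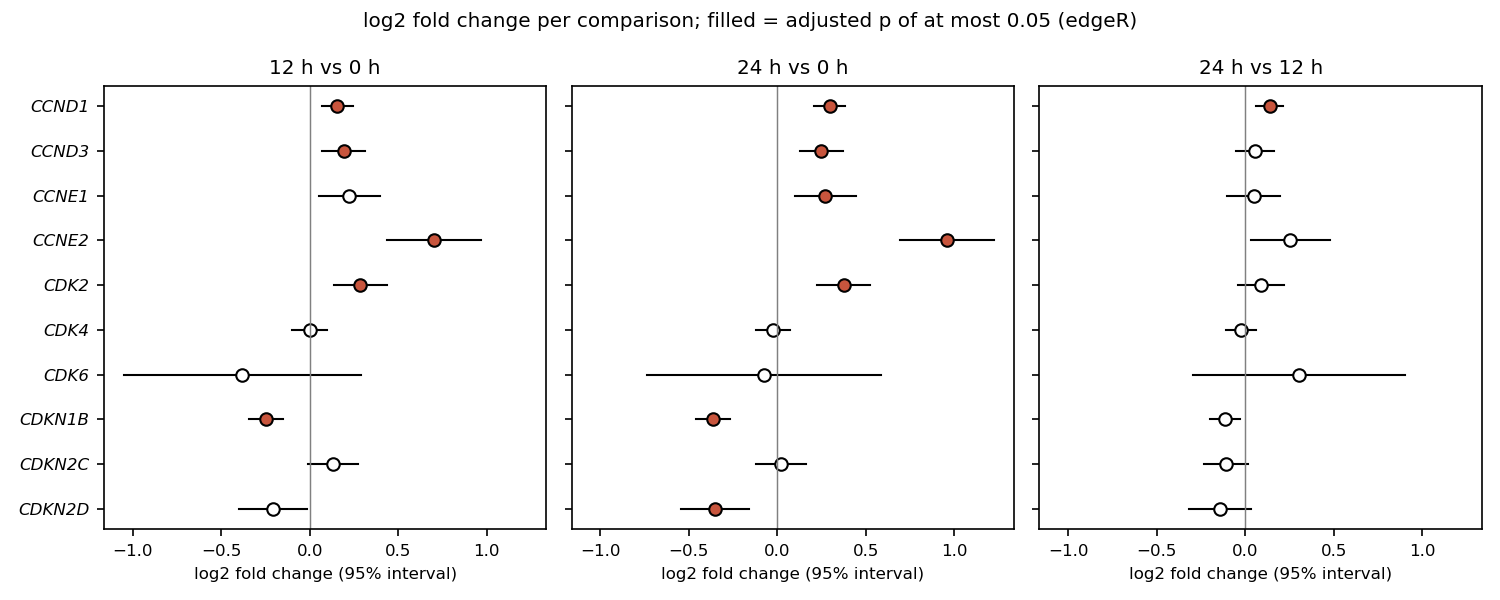
log2 fold change of each gene (horizontal axes) for 12 h against 0 h, 24 h against 0 h and 24 h against 12 h, with the 95% interval as a line and edgeR adjusted p values of at most 0.05 as filled points. CCNE2 lies farthest to the right in both comparisons with 0 h (0.70 and 0.96), CDKN1B and CDKN2D lie to the left at 24 h (-0.36 and -0.35), and CDK6 has the widest intervals.

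Of the inhibitors among the 10 genes, CDKN1B (ENSG00000111276.12, chromosome 12, 12685498 to 12722369, plus strand), which encodes p27, gave the firmest decrease. It had 169.0 and 158.3 CPM at 0 h, 135.7, 136.9 and 140.8 CPM at 12 h, and 122.1, 129.8 and 129.8 CPM at 24 h. The libraries of the 3 times did not overlap, and each later time was lower. CDKN1B fell by 0.25 on the log2 scale at 12 h (SE 0.047, edgeR adjusted p = 0.000418) and fell by 0.36 at 24 h (SE 0.047, adjusted p = 6.89e-07), to 0.777 of its time-0 level. Both calls held in every setting tried, with adjusted p values up to 0.0376 at 12 h and 0.000188 at 24 h. The difference between 24 h and 12 h, -0.12 (SE 0.042), did not pass (edgeR adjusted p = 0.161), although the libraries did not overlap.

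CDKN2D (ENSG00000129355.7, chromosome 19, 10566460 to 10569059, minus strand), the gene of the INK4 inhibitor p19, had 10.04 and 11.4 CPM at 0 h, 9.47, 9.41 and 8.94 CPM at 12 h, and 9.04, 7.62 and 8.56 CPM at 24 h. Every treated library was below both time-0 libraries and the 12 h and 24 h libraries overlapped. The log2 difference was -0.21 (SE 0.094, edgeR adjusted p = 0.167) at 12 h. At 24 h CDKN2D fell by 0.35 on the log2 scale (SE 0.094, adjusted p = 0.00850). This call was lost without the unnumbered time-0 library, the higher of the pair (edgeR adjusted p = 0.159), and without 24 h replicate 2, the lowest (0.0694).

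CDKN2C (ENSG00000123080.12, chromosome 1, 50960745 to 50974634, plus strand), the gene of p18, had 20.7 and 20.5 CPM at 0 h, 21.4, 24.0 and 22.2 CPM at 12 h, and 20.1, 20.7 and 22.1 CPM at 24 h. The 12 h libraries were above those of 0 h and the 24 h libraries lay around them. The log2 difference was 0.13 (SE 0.069, edgeR adjusted p = 0.260) at 12 h and 0.023 (95% interval -0.12 to 0.16, adjusted p = 0.886) at 24 h. CDKN2C shares 20.4% of its exon bases with a long non-coding RNA on the opposite strand, which has no entry in the count table. The ratio of CDKN2C to CDKN2D in CPM averaged 1.93 at 0 h (1.80 to 2.06), 2.43 at 12 h (2.27 to 2.55) and 2.51 at 24 h (2.22 to 2.72), and no treated library reached down to those of 0 h. This ratio was not corrected for length.

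The size of the differences was set out beside the rest of the genome. The median log2 difference of the 10 genes was 0.14 at 12 h and 0.14 at 24 h, and over all tested genes it was -0.00069 and -0.0031. The median absolute log2 difference over all tested genes was 0.16 at 12 h and 0.17 at 24 h, so the 12 h value of CCND1 (0.16) lay at the size of a typical gene's and that of CCND3 (0.19) a little above. Counting groups without overlap, 6 of the 10 genes were higher and 3 lower at 12 h, against 17.3% and 19.6% of all tested genes, and 5 were higher and 2 lower at 24 h, against 21.5% and 21.7%. Between 24 h and 12 h, 2 were higher and 1 lower, against 10.3% and 9.33%. In CPM the gain at 24 h over 0 h was 64.9 for CCND1, 5.17 for CCND3, 2.30 for CCNE1, 3.9997 for CCNE2 and 5.74 for CDK2. Of these gains, 50.6% for CCND1, 75.6% for CCND3, 80.7% for CCNE1, 65.9% for CCNE2 and 73.3% for CDK2 were present at 12 h. CDKN1B fell by 36.4 CPM by 24 h, of which 71.0% was present at 12 h, and for CDKN2D, which fell by 2.32 CPM, the share was 62.7%. These shares cover the genes called at 24 h and have no interval. Both differences in a share use the same time-0 libraries. The 12 h differences of CCNE1 and CDKN2D did not pass (edgeR adjusted p = 0.0819 and 0.167).

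E cyclin and p27 transcripts moved apart. The summed CPM of CCNE1 and CCNE2 was 0.0900 and 0.0971 of the CPM of CDKN1B in the time-0 libraries. It was 0.132 to 0.158 at 12 h and 0.153 to 0.181 at 24 h, so that every treated library lay above both time-0 libraries and the 2 treated times overlapped. The mean ratio was 0.0936, 0.144 and 0.170 in order of time. These are ratios of RNA counts not corrected for length, given without a test.

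**Figure D3:**
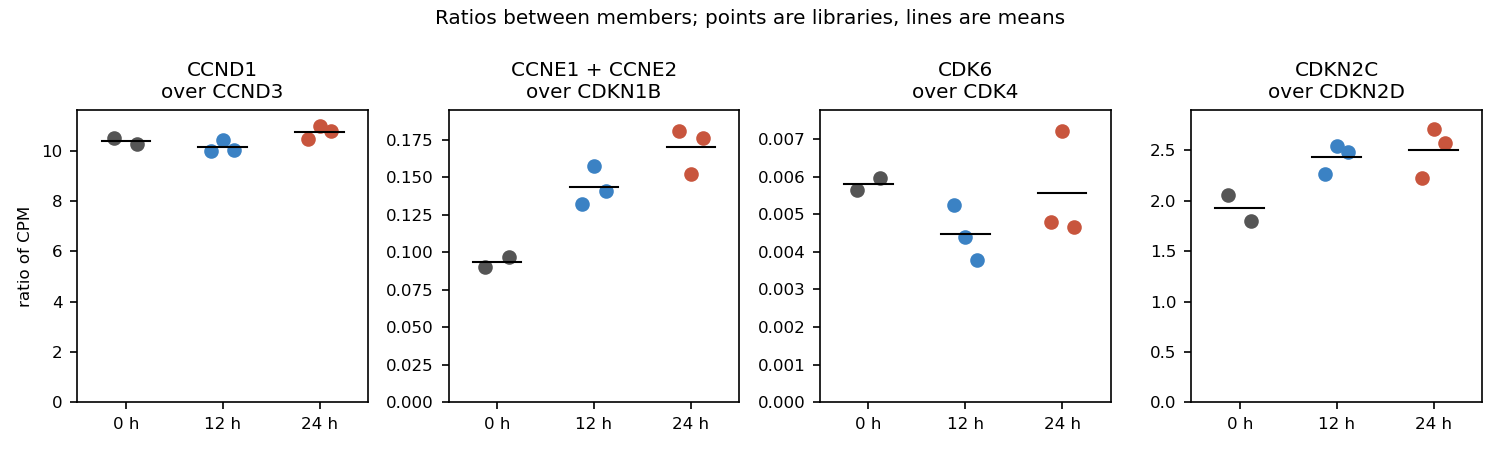
Ratios of CPM between members (vertical axes, from 0) in each library (points) with the group mean (lines) at 0, 12 and 24 h. The ratio of the summed E cyclins to CDKN1B is below 0.098 in both time-0 libraries and above 0.13 in all treated libraries, whereas that of CCND1 to CCND3 stays between 9.98 and 11.01. The ratios are not corrected for length.

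Between genes, levels were compared per kilobase of merged exon. At 0 h the order was CCND1 (60.1 CPM per kilobase), CDK4 (34.5), CDKN1B (17.7), CDKN2D (7.13), CDKN2C (6.83), CDK2 (4.97), CCND3 (4.78), CCNE1 (4.49), CCNE2 (0.966) and CDK6 (0.0506). CDKN2D and CDKN2C were not separated, since the spread of CDKN2D (SD 0.648, n = 2) exceeds their gap, and CDK2 and CCND3 were separated by little more than the spread of their libraries. At 24 h CCND1 (73.7), CDK4 (33.9) and CDKN1B (13.7) were again first. CDKN2C (6.94), CDK2 (6.45), CCND3 (5.67), CDKN2D (5.59) and CCNE1 (5.43) followed, with neighbouring libraries overlapping except between CDK2 and CCND3, and CCNE2 (1.88) and CDK6 (0.0477) were last at all times. With the longest transcript in place of merged exons, CCND3 moved from rank 7 to rank 4 at 0 h, because its 5761 merged exon bases hold a longest transcript of 2394 bases.

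**Figure D4:**
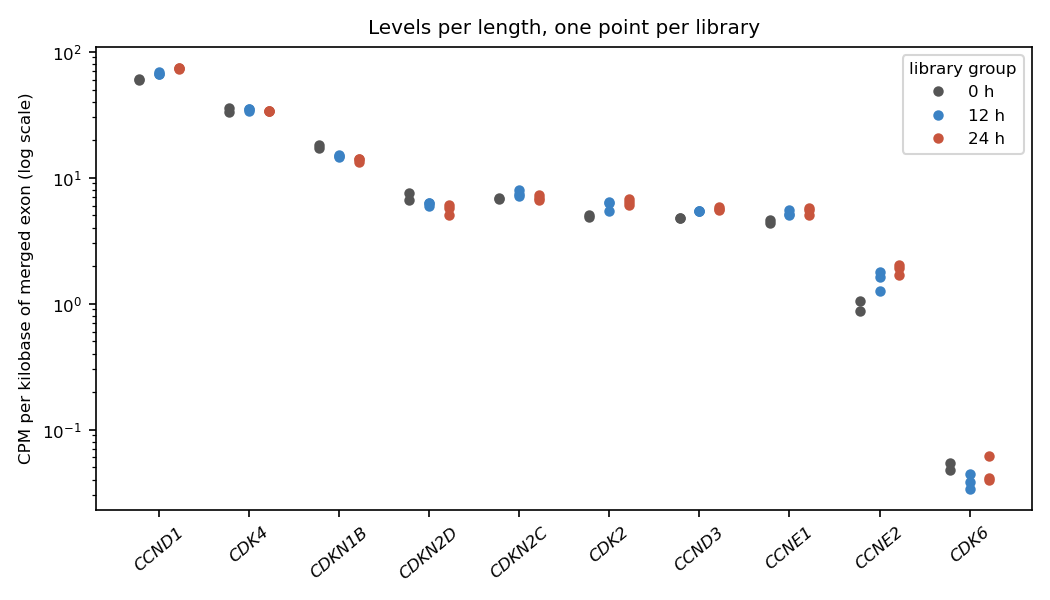
Level of each gene in CPM per kilobase of merged exon (logarithmic vertical axis), 1 point per library, in the order of the 0 h means. CCND1 and CDK4 are highest, 5 genes crowd between 4 and 8, and CDK6 lies below 0.1.

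Other genes of the G1/S machinery were read from the same fit. Over all tested genes, 6.75% were lower at 12 h, 8.49% at 24 h and 1.61% at 24 h against 12 h. Among the other D cyclins and inhibitors, 1 of 4 tested genes passed, lower in every comparison: CDKN1A, which encodes the Cip/Kip inhibitor p21. It had 302.5 and 301.8 CPM at 0 h, 220.2, 191.0 and 213.0 CPM at 12 h, and 170.9, 170.5 and 174.9 CPM at 24 h, with no overlap between times. CDKN1A fell by 0.54 on the log2 scale at 12 h (edgeR adjusted p = 1.06e-08), and fell by 0.81 at 24 h (adjusted p = 1.85e-13). From 12 h to 24 h it fell by 0.27 (edgeR adjusted p = 0.000302). The median log2 difference of this list was -0.20 at 12 h and -0.14 at 24 h.

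Of 8 enzymes that activate or inhibit CDKs, 2 were higher at 12 h, and 2 were higher and 1 lower at 24 h. Over all tested genes, 4.85% were higher at 12 h, and 7.82% were higher and 8.49% lower at 24 h. The medians of the list were 0.017 and -0.024 on the log2 scale. CDC25A, the phosphatase that removes inhibitory phosphates from CDK2, had 7.73 and 8.45 CPM at 0 h, 10.8 to 13.2 CPM at 12 h and 12.5 to 14.7 CPM at 24 h. It was 1.46-fold higher at 12 h and 1.68-fold higher at 24 h (edgeR adjusted p = 0.000188 and 6.35e-07). PKMYT1, a kinase that inhibits CDK1, was higher by 0.33 and 0.41 on the log2 scale (edgeR adjusted p = 0.0105 and 0.000830), and CDC25C, a phosphatase of mitotic entry, fell by 0.29 at 24 h (adjusted p = 0.0101). Without 0 h replicate 1 these calls were lost for PKMYT1 (edgeR adjusted p = 0.274 at 12 h and 0.0625 at 24 h) and CDC25C (0.104), but not for CDC25A.

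The 16 genes of G1 cyclin and p27 degradation had medians near those of all genes, 0.012 at 12 h and -0.0065 at 24 h on the log2 scale. One was higher at 12 h (RBX1, 0.19, edgeR adjusted p = 0.0192), and 1 was higher and 3 were lower at 24 h. At 12 h 6.25% of the list passed in either direction with edgeR, against 11.6% of all tested genes. At 24 h it was 25%, against 16.3%. RNF123, a subunit of a ligase for p27, was higher by 0.25 on the log2 scale at 24 h (edgeR adjusted p = 0.00306). CKS1B, the cofactor with which SKP2 recognizes p27, fell by 0.25 (edgeR adjusted p = 0.00599), and FBXW7, the receptor that targets cyclin E, fell by 0.26 (adjusted p = 0.00611). These 3 calls were lost without 0 h replicate 1 (edgeR adjusted p = 0.0680, 0.0650 and 0.153), and those of CKS1B and FBXW7 also without 24 h replicate 2 (0.0719 and 0.0611). SKP2 itself was among the genes that did not pass. The share at 12 h depended on the tool. With DESeq2, 2 of the 16 genes were higher and 2 lower at 12 h. RNF123 (DESeq2 adjusted p = 0.0297) and FBXW7 (0.0498) were among these. Over all genes, DESeq2 called 2588 at 12 h where edgeR called 2443.

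The RB, E2F and DP list held the largest increase among these lists. Of 17 genes, 2 were higher and 2 lower at 12 h, and 4 were higher and 3 lower at 24 h. The medians were 0.026 and 0.052 on the log2 scale. Over all tested genes, 4.85% were higher and 6.75% lower at 12 h, and 7.82% higher and 8.49% lower at 24 h. E2F1, an activator of S phase genes including the E cyclins, had 19.0 and 21.1 CPM at 0 h, 26.9 to 29.2 CPM at 12 h and 27.6 to 31.2 CPM at 24 h (1.42-fold and 1.47-fold, edgeR adjusted p = 5.54e-06 and 4.03e-07). E2F2, another activator, had 1.23 and 1.97 CPM at 0 h, 2.33 to 3.62 CPM at 12 h and 3.60 to 4.25 CPM at 24 h, which is 1.93-fold and 2.51-fold (edgeR adjusted p = 0.000940 and 4.53e-06). The E2F2 call at 12 h was lost without 0 h replicate 1 (edgeR adjusted p = 0.147). E2F3 was higher by 0.26 on the log2 scale at 24 h (edgeR adjusted p = 0.00168).

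The list of later cyclins, which includes the kinase CDK1, held no gene called higher in any comparison. Of 5 tested genes, 0 passed at 12 h with edgeR, where 0 had an unadjusted p under 0.05 and 0 passed with DESeq2. The 12 h fold intervals of CCNA2 (0.986 to 1.18) and CCNF (0.960 to 1.16) hold the folds of CCND1 (1.11) and CCND3 (1.14). Rises of that size at 12 h are therefore not excluded for CCNA2 and CCNF. The intervals of CCNB1, CCNB2 and CDK1 end lower, at 1.10, 1.04 and 1.09. Of the same 5, 2 were lower at 24 h than at 0 h, and 3 were lower at 24 h than at 12 h. Over all tested genes, 11.6% passed at 12 h in either direction. In the 2 later comparisons 8.49% and 1.61% were lower. CCNB2, a mitotic cyclin, had 47.1 and 48.0 CPM at 0 h, 45.2 to 46.4 CPM at 12 h and 37.3 to 39.9 CPM at 24 h, and fell by 0.30 on the log2 scale at 24 h (edgeR adjusted p = 0.000101). CCNB1, the other mitotic B cyclin, fell by 0.17 at 24 h (edgeR adjusted p = 0.0131), and CCNA2, the cyclin of S phase and G2, fell by 0.25 from 12 h to 24 h (adjusted p = 0.0107). The CCNB1 call against 0 h was lost without the unnumbered time-0 library (edgeR adjusted p = 0.107) and without 24 h replicate 1 (0.104) or 2 (0.0607). The CCNA2 call was lost without 12 h replicate 3 (edgeR adjusted p = 0.122) and without 24 h replicate 1 (0.0703) or 2 (0.0905). Of 6 atypical cyclins and CDK partners, 2 were lower at 12 h and 1 at 24 h, against 6.75% and 8.49% of all tested genes. Their medians were -0.071 and -0.025 on the log2 scale. CCNG1, a p53 target, fell by 0.28 and 0.25 (edgeR adjusted p = 3.25e-05 and 5.87e-05), and CCNI fell by 0.16 at 12 h (adjusted p = 0.0153), a call lost without 0 h replicate 1 (0.280) or 12 h replicate 1 (0.0701) and in the fit to those times alone (0.0655).

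**Figure D5:**
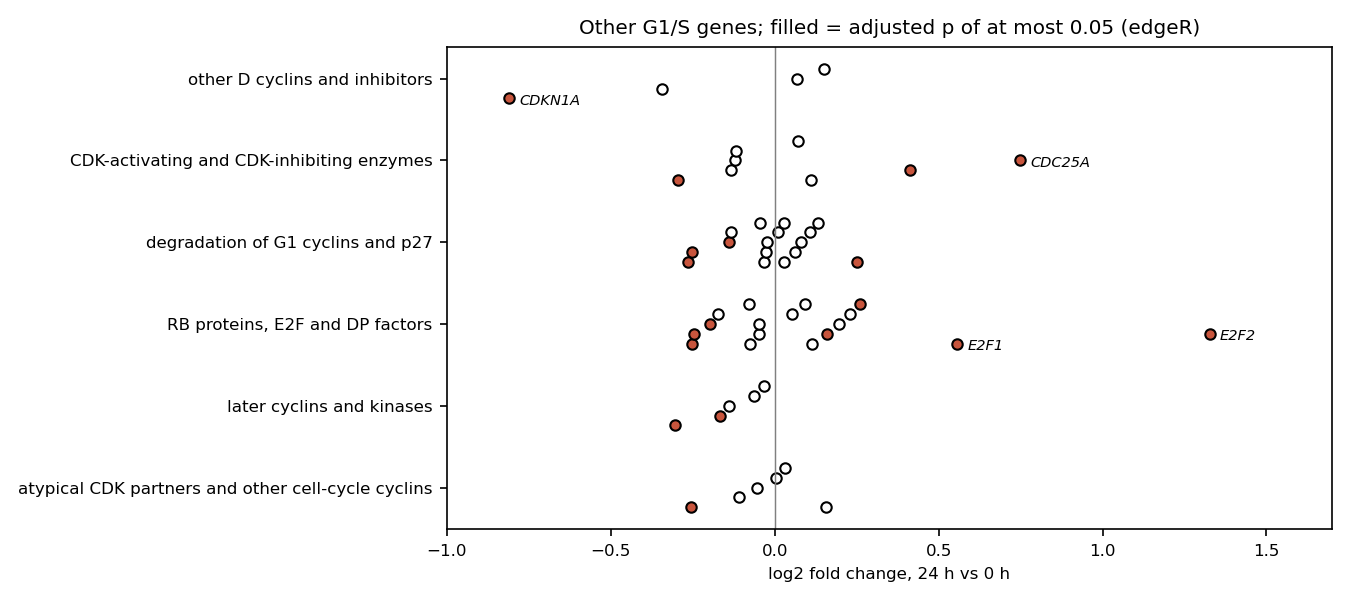
log2 fold change of 24 h against 0 h (horizontal axis) for other genes of the G1/S machinery, 1 point per gene, grouped by role, with edgeR adjusted p values of at most 0.05 filled. E2F2 (1.33), CDC25A (0.75) and E2F1 (0.56) lie farthest to the right and CDKN1A (-0.81) farthest to the left.

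For the gene of each role with the highest level per kilobase, the genes of most similar course were ranked by Pearson's r of log2 CPM over the 8 libraries, among 13464 genes. The order over time that all 8 points share makes high values easy to reach, so they are descriptions only. CCND1 was followed by BCL7A (r = 0.990), ENAH (0.989) and VOPP1 (0.988), and CCNE1 by MPZL2 (0.981), HERC6 (0.975) and TSPAN17 (0.968). CDKN1B was followed by HSPA13, DERL2 and COPB1 (0.995 each). CDK4, which did not vary with time, reached only 0.934 with URB1, 0.931 with EDC3 and 0.928 with CRAMP1.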

How the data were processed

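The authors prepared TruSeq mRNA libraries and sequenced them as read pairs of 150 bases. Per the labels and methods they used cutadapt 4.5, STAR 2.7.11a on GRCh38 and featureCounts 2.0.2. The deposited values are raw counts per gene, without normalization. Strand and multi-mapping settings of the counting are not given in the sources used here. Groups came from the times in the column names. A time-0 column bears a replicate number absent from the time-0 labels and is called the unnumbered library. Chi-square statistics per degree of freedom between replicates (5.10 to 13.8) showed no duplicated library.

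Counts were tested with edgeR 4.0.16 (R 4.3.3; TMM, filterByExpr, robust quasi-likelihood F test, 1 coefficient per time over 8 libraries), with Benjamini-Hochberg adjustment over 21071 genes and a threshold of 0.05. The biological coefficient of variation was 5.59%. Fold changes compare the later with the earlier time. Intervals are 95%. The study's additional fold limit was 1.5. The fit was tested on simulated counts. Alternatives were RLE and upper-quartile normalization, other filters, DESeq2 1.42.0, fits to 2 time points, replicate blocks and leaving out libraries. The genes and lists were chosen with earlier results of these data known. All 10 genes are named, with up to 3 genes of smallest p at 24 h from each other list among those past the threshold in any comparison. Coordinates are on GRCh38 and equalled GENCODE release 44 for all 30996 shared identifiers. Correlations used log2 CPM of genes averaging 100 or more normalized counts.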

Additional observations from a re-analysis of the deposited data

How the results depend on the processing

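The 30 gene comparisons (10 genes, 3 comparisons) gave 455 values in 16 settings, which share libraries and so are not independent. Of these values, 417 kept the direction and the side of the threshold, 23 lost the call, 14 changed sign and 1 gained a call. The sign changes concern genes without a call. CDK4 at 12 h (-0.00058 on the log2 scale) became 0.0050 with RLE, 0.013 with upper-quartile normalization, 0.0087 without a low-count filter, 0.0084 without genes averaging under 100 normalized counts, 0.0055 with DESeq2 and 0.00024 in the fit to 2 times. Leaving out single libraries gave -0.054 to 0.065 for it, -0.083 to 0.035 for CDK4 at 24 h, -0.31 to 0.029 for CDK6 at 24 h and -0.015 to 0.051 for CDKN2C at 24 h.

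The number of the 10 genes past the threshold at 12 h was 5, with 3 in the fit to 2 times and 1 to 5 when single libraries were left out (1 without 0 h replicate 1). At 24 h it was 7, with 5 to 7 when libraries were left out. For 24 h against 12 h it was 1, with 0 by edgeR without a low-count filter (3 at an unadjusted p under 0.05, and 1 by DESeq2) and 0 to 1 when libraries were left out. Calls over all genes ranged, when libraries were left out, from 624 to 2761 at 12 h, 1597 to 4047 at 24 h and 222 to 730 for 24 h against 12 h. At a fold of 1.5 they ranged from 78 to 300, 265 to 567 and 16 to 46, and without genes averaging under 100 normalized counts they were 140 at 12 h and 322 at 24 h. Calls among the other G1/S genes ranged from 4 to 13, 9 to 22 and 2 to 7. The lowest counts against 0 h came without 0 h replicate 1, except that among the 10 genes at 24 h the lowest, 5, came without the unnumbered time-0 library (6 without 0 h replicate 1). Levels per kilobase moved beyond their spread in 23 of 30 values with the longest transcript, and in none with RLE.

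The 12 h and 24 h libraries share replicate numbers, but deviations of same-numbered libraries correlated by only 0.101, 0.0270 and 0.0292 over 13464 genes, and 12 h replicate 2 correlated best with 24 h replicate 3 (0.0523). With the replicate number as a block, calls over all genes for 24 h against 12 h went from 574 to 865, and those among the 10 genes stayed at 1. The count columns number the time-0 libraries 1 and 3 and the labels number them 1 and 2, so pairing with 0 h is not established. A fit of all libraries with the column numbers as a block, added after seeing the data, left 3 of the 10 genes at 12 h (CCND1 and CCND3 at edgeR adjusted p = 0.0594 and 0.0553), 7 at 24 h and 0 for 24 h against 12 h (3 at an unadjusted p under 0.05; CCND1 at edgeR adjusted p = 0.0916). Calls over all genes in it were 2114, 2936 and 476.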
